A study of Mus musculus with 12 samples.

Results

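The gamma subunit genes Cacng2, Cacng3, Cacng4, Cacng5, Cacng6, Cacng7 and Cacng8 were followed in the cortex of WT and CD mice given vehicle or VERCUR. They were chosen by gene symbol, and all 7 of the 7 symbols looked for were found among the 17202 genes measured. The 12 mice sequenced made up 4 groups of 3, WT and CD mice given vehicle (VEH-WT and VEH-CD) and WT and CD mice given the co-treatment (VERCUR-WT and VERCUR-CD). CD mice, a model of Williams-Beuren syndrome, lack 1 copy of the stretch of chromosome 5 between Gtf2i and Fkbp6, both included, and WT mice are their wild-type controls. VERCUR is the combination of curcumin and verapamil, a blocker of L-type calcium channels, which the labels give at 60 and 10 mg/kg/day, started at 8 weeks of age and given for 1 month, with all mice killed at 16 weeks. The study's methods give a lower dose of verapamil and an earlier end, with treatment kept up until the mice were killed. They describe the VEH mice, which the labels call untreated, as drinking water with DMSO. All 4 groups were male mice, on a mainly C57BL/6J background, from CD mice crossed with a Thy1-YFP line that labels pyramidal neurons, and the tissue was the frontal part of the cortex. The question asked of each comparison was whether the deletion, the co-treatment or their combination went with a different level of any of these genes.

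The family has 3 kinds of member. Cacng2, which encodes stargazin, Cacng3, Cacng4 and Cacng8 encode the type I transmembrane AMPA receptor regulatory proteins (TARPs), which carry AMPA-type glutamate receptors to the cell surface, anchor them at synapses through PSD-95 and slow their closing. Cacng5 and Cacng7 encode the type II TARPs, which also bind AMPA receptors but lack the same PSD-95-binding end. Cacng6 belongs with the gamma subunit of the skeletal muscle calcium channel and is not counted among the TARPs. In adult forebrain, Cacng2, Cacng3, Cacng7 and Cacng8 are known to be widely expressed in neurons, and Cacng4 is known from the striatum and the olfactory bulb.

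The last 30 coding bases of each gene, stop codon included, are printed because this end separates the type I TARPs from the other members. They were read from the GENCODE M21 transcripts of GRCm38, 5′ to 3′, and capitals mark the 13 positions at which Cacng2, Cacng3, Cacng4 and Cacng8 have the same base, wherever a gene has that base.
Cacng2: acagccAACcGccggACcACgCCcGTaTga
Cacng3: ccggccAACaGacgtACcACgCCtGTcTga
Cacng4: atgctgAACcGgcggACgACtCCcGTgTga
Cacng8: acgctcAACaGgaaaACcACgCCcGTgTag
Cacng5: tatgaccAgatgtcatCatCtCCctgcTga
Cacng7: catctccACatctccACttCgCCgtgcTga
Cacng6: tgccccAAgtGgggtggccCaaCcGccTag
Cacng5 had the shared base at 6 of the 13 positions, Cacng6 at 7 and Cacng7 at 8. Over the whole coding sequence, the closest pairs were Cacng2 and Cacng3, with 72.8% identical bases in the alignment, Cacng5 and Cacng7, with 72.4%, and Cacng2 and Cacng8, with 72.3%. The pair of Cacng2 and Cacng6 was the farthest apart, with 61.6%. None of the 21 pairs of genes shared a run of 30 bases in any annotated transcript, so a read of 100 bases that matched 1 member exactly did not match another.

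The genes lie at 4 places in the genome (GRCm38). Cacng7 (chr7:3332955-3368221), Cacng8 (chr7:3390683-3415648) and Cacng6 (chr7:3424195-3435667) stand in a row on the plus strand. Cacng3 (chr7:122670492-122769393) is on the plus strand of the same chromosome. Cacng4 (chr11:107732357-107794557) and Cacng5 (chr11:107874605-107915055) are neighbours on the minus strand, and Cacng2 (chr15:77991748-78120028) is on the minus strand. The printed ends are at chr15:77995149-77995178 for Cacng2, chr7:122768817-122768846 for Cacng3, chr11:107734780-107734809 for Cacng4, chr7:3415576-3415605 for Cacng8, chr11:107877352-107877381 for Cacng5, chr7:3366919-3366948 for Cacng7 and chr7:3434911-3434940 for Cacng6, each in a coding exon. None of the 7 lies in the interval deleted in CD mice. The antisense gene A730060N03Rik overlaps Cacng2 by 323 bases and Gm11650 overlaps Cacng4 by 692 bases, and since the sources used here do not say whether reads were counted by strand, reads from these overlaps could have gone to either gene. Annotated genes that were not among those measured overlap the spans of Cacng3 (Gm44749), Cacng7 (Gm44256) and Cacng8 (Gm44151 and Gm23450). Whether reads were lost to them was not tested.

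From 40287299 to 56481666 reads were counted per mouse. Gtf2i, at 1 end of the deletion, had normalized counts from 11579 to 12750 in WT mice and from 5916 to 6729 in CD mice, and 20 of the 22 genes tested within the deleted interval were called lower in CD mice, at 0.389 to 0.619 times the WT level, so the genotype labels held. Markers of excitatory cortical neurons were high in every mouse (summed normalized count from 110795 to 129779). The sum of 6 markers of striatal neurons ranged from 7343 to 32831 over the 12 mice, and 1 mouse in each group stood apart with a sum of 24114 or more. These were VERCUR-WT 3 (32831), VEH-CD 1 (31635), VEH-WT 3 (28824) and VERCUR-CD 1 (24114), and all 7 genes were also compared without them. The remaining mice split by treatment without overlap, with sums from 13853 to 15643 under vehicle and from 7343 to 8860 under VERCUR. The sum of 5 oligodendrocyte markers ranged from 67424 to 197295. In these bulk samples, fewer cells of a type and less RNA per cell cannot be told apart.

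Per kilobase of exon, Cacng7 had the highest level of the family and Cacng6 the lowest. The normalized count per kilobase was 3698 ± 301 (SD, n = 12 mice) for Cacng7, 2768 ± 142 for Cacng3, 1613 ± 123.5 for Cacng2, 1467 ± 86.1 for Cacng8, 675 ± 110.0 for Cacng4, 78.1 ± 6.63 for Cacng5 and 23.0 ± 4.63 for Cacng6. Cacng7 made up 35.8% of the summed level of the 7 genes on this scale, Cacng3 26.8%, Cacng2 15.6%, Cacng8 14.2%, Cacng4 6.55%, Cacng5 0.757% and Cacng6 0.222%. In all 12 mice, the order was the same except for Cacng2 and Cacng8, whose ranges overlapped and of which Cacng2 was the higher in 9 mice. The largest step in the order was between Cacng4 and Cacng5, 8.65-fold, and the other steps were from 1.10-fold to 3.40-fold. The place of Cacng2 depended on the length used, since it came behind Cacng8 per kilobase of the longest annotated transcript (1613 against 1814) and ahead of Cacng3 per kilobase of coding sequence (9169 against 8134). The summed level of the family differed between groups by less than the SD within them, at 10314 ± 399.5 per kilobase in VEH-WT, 10325 ± 255 in VEH-CD, 10319 ± 371 in VERCUR-WT and 10332 ± 232 in VERCUR-CD (SD, n = 3 each).

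**Figure D1:**
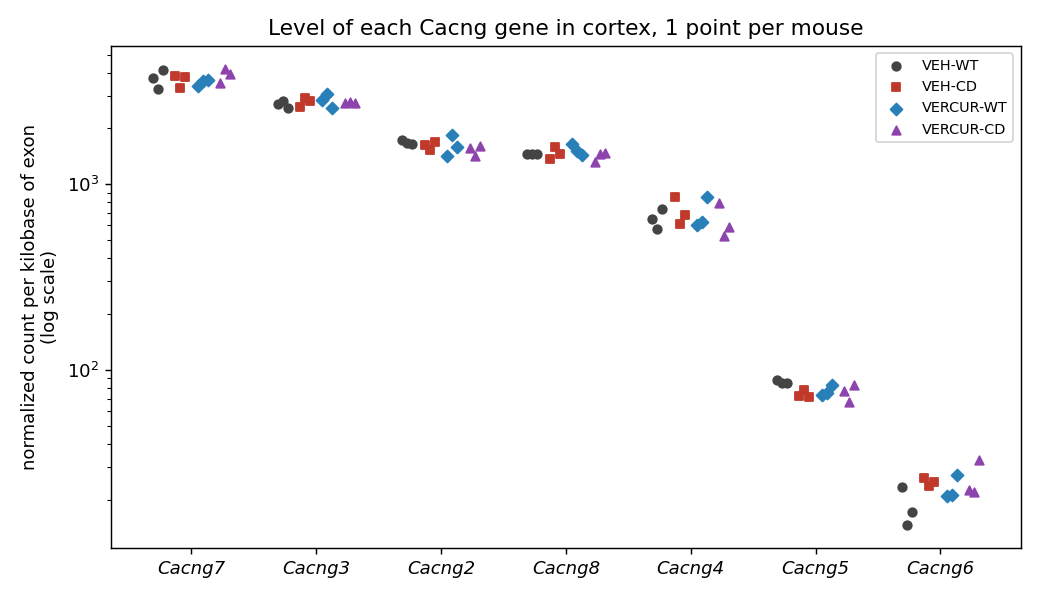
Normalized count per kilobase of exon (log scale) for each Cacng gene in each of the 12 mice, 1 point per mouse, with 3 mice in each of the 4 groups. The order from Cacng7 to Cacng6 held in every mouse apart from Cacng2 and Cacng8, whose ranges overlapped.

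None of the 7 genes was called in any of the 8 comparisons of genotype, treatment and their interaction (limma on log2(normalized count + 1), Benjamini-Hochberg adjusted p under 0.05 over 17111 genes). Of all genes tested, 0.257% were called in VEH-CD against VEH-WT, 0.146% in VERCUR-CD against VERCUR-WT, 0.199% in VERCUR-CD against VEH-WT and 0.38% in CD against WT over both treatments, and no gene was called in the other 4 comparisons, where from 506 to 1035 genes had an unadjusted p under 0.05. Without overlap, 3 mice against 3, the members gave 1 value above and 1 below in VEH-CD against VEH-WT, 1 below in VERCUR-WT against VEH-WT and 2 below in VERCUR-CD against VEH-WT, which are described with Cacng5, Cacng6 and Cacng2. None was without overlap in VERCUR-CD against VERCUR-WT, where 3.91% of all genes were above and 3.83% below, or in VERCUR-CD against VEH-CD, where 3.71% were above and 4.63% below, and none was above in VERCUR-WT (4.48% of genes) or VERCUR-CD (6.56%) against VEH-WT. Without adjustment, 2 values of the 56 (7 genes in 8 comparisons) had p under 0.05, that of Cacng5 in VEH-CD against VEH-WT, where 11.8% of all genes did, and that of Cacng6 in VERCUR-CD against VEH-WT, where 8.68% did. In VEH-CD against VEH-WT, 4 of the 7 fold changes were above 1 and 3 below, with a median log2 fold change of 0.01, beside -0.0028 over all genes tested. In VERCUR-CD against VEH-CD, 3 were above and 4 below, with a median of -0.01, beside 0.0028 over all genes.

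**Figure D2:**
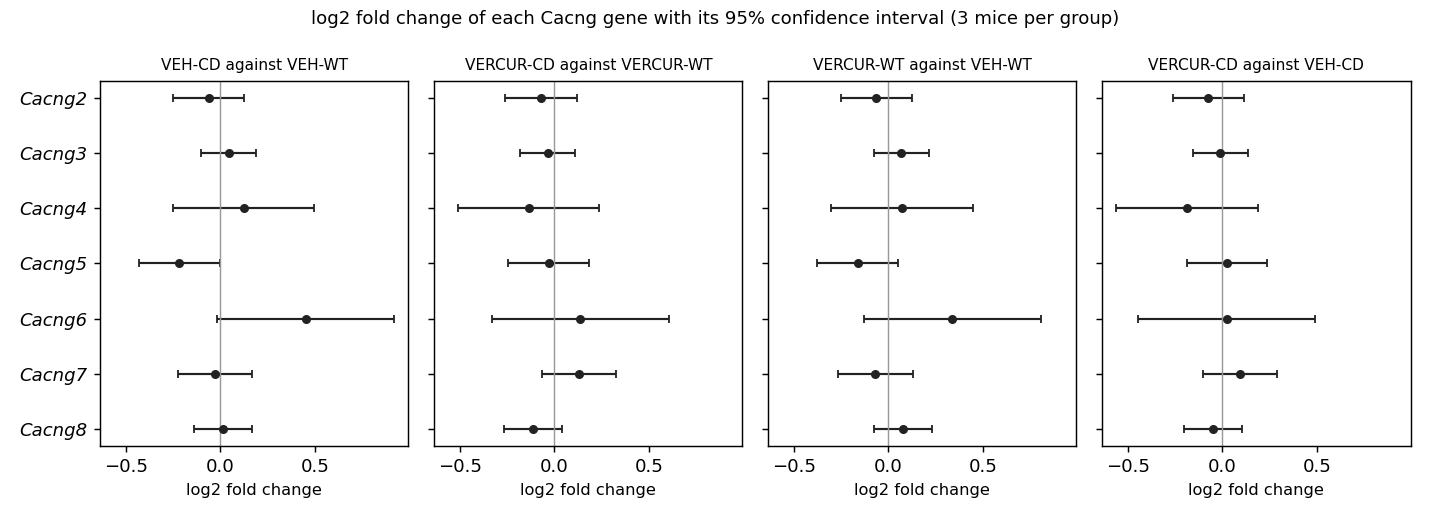
log2 fold change of each Cacng gene (x axis) with its 95% confidence interval in 4 comparisons, each of 3 mice against 3, from limma. Cacng4 and Cacng6 had the widest intervals, and the interval of Cacng5 in VEH-CD against VEH-WT was the only one of those drawn that did not reach 0.

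Cacng2, the stargazin gene, was at a high level in all groups. Its normalized count was 9524, 9228 and 9050.4 in the VEH-WT mice, 9013, 8378 and 9309 in the VEH-CD mice, 7798, 10173 and 8776 in the VERCUR-WT mice, and 8669, 7796 and 8907 in the VERCUR-CD mice. The VERCUR-WT mice held both the highest and 1 of the lowest values, and the 3 VERCUR-CD mice lay below the 3 VEH-WT mice. That pattern, 3 values below the other 3, was seen for 7.33% of all genes in this comparison. The log2 fold change of VERCUR-CD against VEH-WT was -0.13 ± 0.087 (SE, limma adjusted p = 0.704), a fold of 0.911 with a 95% interval from 0.800 to 1.04. VEH-CD was at 0.960 times VEH-WT (0.842 to 1.09).

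Cacng3 was the member with the smallest spread between mice of a group, a residual SD of 0.0805 on the log2 scale against a median of 0.144 over all genes tested. Normalized counts were 7510, 7767 and 7189 in VEH-WT, 7286, 8080.4 and 7807 in VEH-CD, 7950.3, 8529 and 7133 in VERCUR-WT, and 7612, 7734 and 7641 in VERCUR-CD. All 4 groups overlapped. VEH-CD was at 1.03 times VEH-WT (95% interval 0.932 to 1.14, limma adjusted p = 0.821) and VERCUR-CD at 0.993 times VEH-CD (0.898 to 1.10). Over the 5 comparisons of 1 group with another, the intervals of Cacng3 reached from 0.883 to 1.16, so larger differences than these were outside all of them.

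Cacng8, the remaining type I TARP of the chromosome 7 row, had normalized counts of 3402, 3411 and 3395 in VEH-WT, 3190.02, 3707 and 3431 in VEH-CD, 3866, 3546 and 3377 in VERCUR-WT, and 3105, 3407 and 3453 in VERCUR-CD. The 3 VEH-WT mice had a coefficient of variation of 0.234%, and each other group ranged both above and below them. The fold of VEH-CD against VEH-WT was 1.01 (0.908 to 1.12), and the lowest fold of Cacng8 in these comparisons was 0.924 (0.831 to 1.03), for VERCUR-CD against VERCUR-WT (limma adjusted p = 0.9999).

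Cacng4 varied more between mice than between groups. Its normalized count was 2336, 2062 and 2628 in VEH-WT, 3064, 2195 and 2439 in VEH-CD, 2164, 2238 and 3043 in VERCUR-WT, and 2833, 1879 and 2091 in VERCUR-CD. In VEH-CD, VERCUR-WT and VERCUR-CD 1 mouse was well above the other 2, and the groups overlapped throughout. The residual SD was 0.254 on the log2 scale, higher than in 76.8% of genes tested. VEH-CD was at 1.09 times VEH-WT (95% interval 0.841 to 1.41, limma adjusted p = 0.798), and VERCUR-CD at 0.879 times VEH-CD (0.678 to 1.14, adjusted p = 0.87).

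The 4 mice with the highest Cacng4 were the same 4 that stood apart in striatal markers, 1 in each group. This was seen in the data first and then measured on the same mice, so the p-values of this slope are not independent evidence. In a limma fit with the group means, the log2 level of Cacng4 rose by 0.28 ± 0.036 (SE) per doubling of the striatal marker sum (adjusted p = 0.00128, n = 12 mice), a slope called for 1.19% of all genes. Leaving out any 1 mouse, which keeps most of these 4, gave slopes from 0.26 to 0.34, each called. Without the 4 mice, the slope was 0.68 ± 0.47 and not called (adjusted p = 0.533, n = 8 mice). The striatal sum of these 8 mice varied little within groups and was higher in every VEH mouse than in every VERCUR mouse. The slopes of Cacng3 (-0.08 ± 0.026, adjusted p = 0.252) and Cacng8 (-0.08 ± 0.028, adjusted p = 0.272) had the opposite sign and were not called, and those of the other 4 members were from 0.01 to 0.05 with adjusted p from 0.79 to 0.943. On the oligodendrocyte marker sum, the slope of Cacng4 was 0.46 ± 0.126 (adjusted p = 0.141), and 1.13% of genes were called. The 3 genes whose values over the 12 mice were most like those of Cacng4 were Necab2 (r = 0.953), Spint1 (r = 0.949) and Gng7 (r = 0.933). With the striatal marker sum as a covariate, the standard error of the Cacng4 difference between VEH-CD and VEH-WT fell from 0.172 to 0.0716 on the log2 scale and the difference was 0.12 (limma adjusted p = 0.513). The same covariate took the Cacng4 difference from 0.07 to 0.24 in VERCUR-WT against VEH-WT (adjusted p = 0.892) and from -0.19 to 0.0022 in VERCUR-CD against VEH-CD (adjusted p = 0.999). Without the 4 mice, the Cacng4 difference was 0.076 in VEH-CD against VEH-WT, 0.0037 in VERCUR-WT against VEH-WT and -0.22 in VERCUR-CD against VEH-CD. The covariate and the removal of mice thus gave different values for the treatment comparisons. No member was called in any comparison, with the covariate or without the 4 mice. Whether these samples held tissue of the striatum was not tested.

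**Figure D3:**
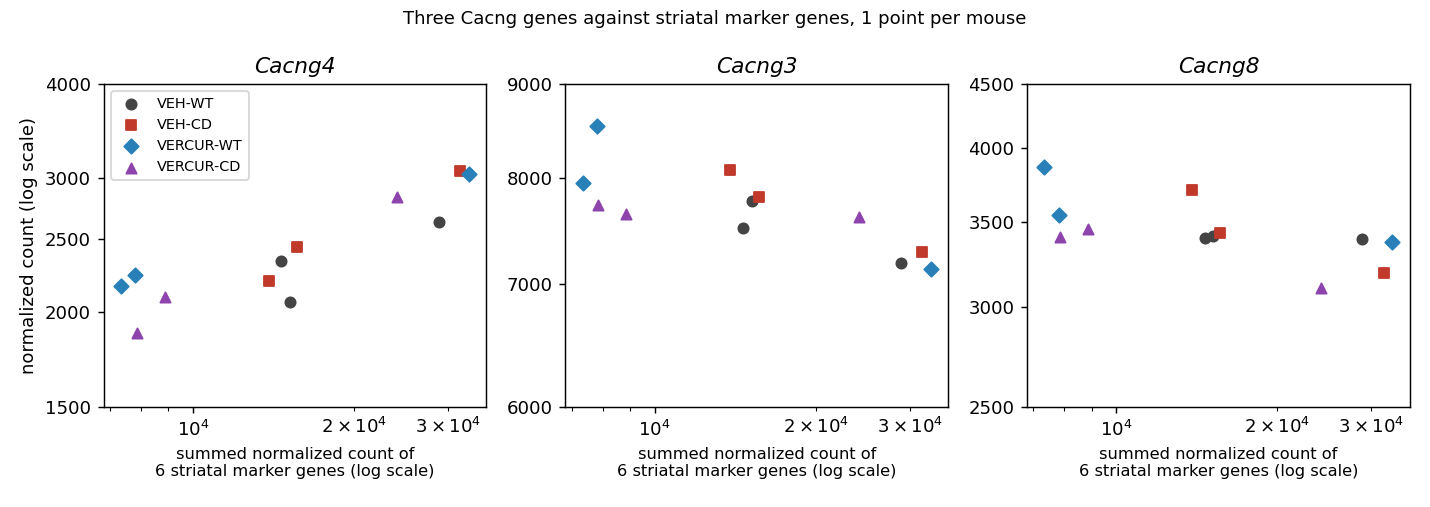
Normalized count of Cacng4, Cacng3 and Cacng8 (y axis, log scale) against the summed normalized count of 6 striatal marker genes (x axis, log scale), 1 point per mouse in 4 groups of 3. The 4 mice with a striatal sum of 24114 or more, 1 from each group, had the 4 highest values of Cacng4, and Cacng3 and Cacng8 sloped slightly the other way.

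Cacng7, a type II TARP gene and the first of the chromosome 7 row, had normalized counts of 9167, 7993 and 10116 in VEH-WT, 9378, 8079.5 and 9226 in VEH-CD, 8276, 8740.5 and 8901 in VERCUR-WT, and 8629, 10237 and 9593 in VERCUR-CD. The widest range was within VEH-WT, and all other groups overlapped it. The fold of VEH-CD against VEH-WT was 0.981 (95% interval 0.856 to 1.12), and the highest fold of Cacng7 in these comparisons was 1.10 (0.956 to 1.26), for VERCUR-CD against VERCUR-WT (limma adjusted p = 0.9999).

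Cacng5, the other type II TARP gene, was highest in VEH-WT. The normalized count was 338.5, 324 and 326 in the VEH-WT mice, 276.5, 300.2 and 274 in the VEH-CD mice, 280.1, 288 and 317 in the VERCUR-WT mice, and 293, 256 and 319.5 in the VERCUR-CD mice. Each of the 3 VEH-WT mice was above each of the other 9, a pattern that 1.43% of all genes showed, while the 3 other groups overlapped one another. The lowest VEH-WT value, in VEH-WT 2, had an exact 95% Poisson interval, which covers counting error only, from 287.6 to 364.7. That of the highest other mouse, VERCUR-CD 3, was from 286.1 to 355.8. The coefficient of variation between the VEH-WT mice was 2.34%, where counting alone gives 5.60%. In the single comparisons, the 3 values below the other 3 that Cacng5 showed were seen for 11.4% of genes in VEH-CD against VEH-WT, 5.25% in VERCUR-WT against VEH-WT and 7.33% in VERCUR-CD against VEH-WT. The fold was 0.860 (95% interval 0.742 to 0.998) for VEH-CD against VEH-WT, 0.894 (0.771 to 1.04) for VERCUR-WT against VEH-WT and 0.876 (0.755 to 1.02) for VERCUR-CD against VEH-WT. Their limma adjusted p were 0.416, 0.989 and 0.615. VERCUR-CD was at 1.02 times VEH-CD (0.878 to 1.18). The summed level of 6 interneuron markers, all of them found and none at 0 in any mouse, was 42452 to 46331 in VEH-WT, 37768 to 40833 in VEH-CD, 39160.4 to 42647 in VERCUR-WT and 39196 to 40054 in VERCUR-CD. VEH-WT thus lay above both CD groups in it and overlapped VERCUR-WT. In the other cell type marker sums computed, VEH-WT overlapped every other group. No slope of Cacng5 on the interneuron sum was fitted, and the part of that sum in the values of Cacng5 was not tested. The difference between the genotype effects under VERCUR and under VEH was 0.19 ± 0.14 on the log2 scale (limma adjusted p = 0.819).

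Cacng6, the member outside the TARPs, was the lowest gene of the family and rested on few reads, 25 to 67 per mouse. Its level is one of those the study picked out on these same mice, so its values here are not independent evidence. The normalized count was 45.95, 28.87 and 33.9 in VEH-WT, 51.42, 46.8 and 49.11 in VEH-CD, 41.54, 41.68 and 53.47 in VERCUR-WT, and 44.5, 43.17 and 64.48 in VERCUR-CD. The 3 VEH-CD mice lay just above the 3 VEH-WT mice, a pattern seen for 9.28% of all genes, and the lowest VEH-CD value was 46.8 against 45.95 for the highest VEH-WT mouse. The other groups overlapped. The reads behind these values give exact 95% Poisson intervals, which cover counting error only, from 33.0 to 62.3 for VEH-WT 1 and from 35.1 to 61.2 for VEH-CD 2. The coefficient of variation between mice was 24.2% in VEH-WT, 4.70% in VEH-CD, 15.03% in VERCUR-WT and 23.5% in VERCUR-CD, where counting alone gives 16.9%, 14.7%, 14.5% and 13.4%.

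The log2 fold change of Cacng6 was 0.45 ± 0.22 (SE) for VEH-CD against VEH-WT, a fold of 1.37 with a 95% interval from 0.989 to 1.89 (limma adjusted p = 0.44). It was 0.48 ± 0.22 for VERCUR-CD against VEH-WT (fold 1.39, 1.00 to 1.92, adjusted p = 0.567) and 0.02 ± 0.22 for VERCUR-CD against VEH-CD (fold 1.02, 0.734 to 1.41, adjusted p = 0.985). VERCUR-WT was at 1.26 times VEH-WT (0.914 to 1.75), and the interaction was -0.32 ± 0.31 (adjusted p = 0.838). For Cacng6, the study reports a significant Kruskal-Wallis test and describes the gene as altered in VEH-CD and normalized by the co-treatment. Its list of genes in altered pathways marks recovered values, and the VERCUR-CD value of Cacng6 is not marked there. Neither the significant test nor the normalization was obtained here on all values. On all values of the 9 mice that are VEH-WT or belong to a CD group, the Kruskal-Wallis test gave H = 3.82 (exact p = 0.168). The exact p was taken over every way of dividing these mice into groups of 3. Leaving out 1 mouse moved H from 2.47 (exact p = 0.357, without VEH-WT 2 or VEH-WT 3) to 5.14 (exact p = 0.0607, without VERCUR-CD 3). The study's methods name a correction by coefficient of variation, with its limit, and do not say what was removed. As 1 reading of it, chosen here, 1 value was left out of each group with a coefficient of variation of 20% or more. That value was the one at the greatest distance from the group median. For this gene the rule drops VEH-WT 1 and VERCUR-CD 3. Cacng6 was then called in VEH-CD against VEH-WT (log2 fold change 0.63, limma adjusted p = 0.0275), as were 1135 genes in all, against 44 without the removal. In VERCUR-CD against VEH-CD it was lower and not called (log2 fold change -0.16, limma adjusted p = 0.74). Taking out extreme values narrows the spread within groups, so p-values after this removal are too small. Leaving out VEH-WT 1 for every gene gave the same log2 fold change with an adjusted p of 0.292.

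**Figure D4:**
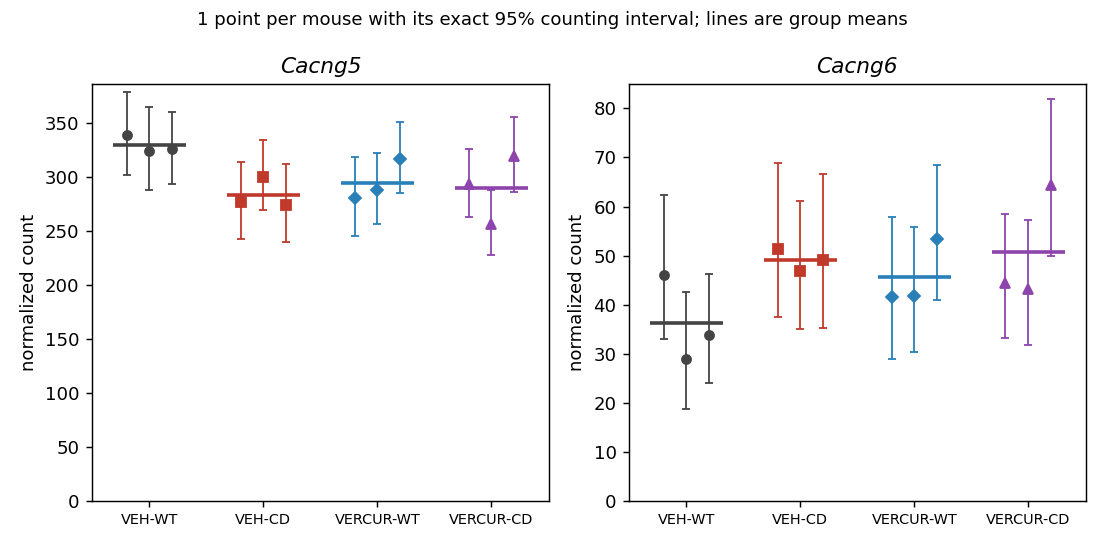
Normalized count of Cacng5 and Cacng6 in each mouse (points) with its exact 95% Poisson counting interval (bars) and the mean of each group of 3 (lines). All 3 VEH-WT mice had more Cacng5 than the other 9 mice, though the counting intervals of VEH-WT 2 and VERCUR-CD 3 overlapped. For Cacng6 the counting intervals of the VEH-WT and VEH-CD mice overlapped.

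Few of the members moved together from mouse to mouse. Of the 21 pairs, 8 had a positive and 13 a negative Pearson correlation of log2 values over the 12 mice, and none passed the adjustment over the 21 pairs (100000 permutations each). The highest was Cacng3 with Cacng8 (r = 0.56, p = 0.0583, adjusted p = 0.408), for which Spearman's rho was 0.84 (p = 0.00095, adjusted p = 0.0199). Without the 2 mice with the most extreme Cacng3, r was 0.66. As deviations from the group means it was r = 0.55, with an adjusted p of 0.724 in an exact permutation within groups. The lowest were Cacng3 with Cacng4 (r = -0.62, rho = -0.59) and Cacng4 with Cacng8 (r = -0.58, rho = -0.66), at adjusted p of 0.408 for r. As such deviations these were r = -0.76 and r = -0.85, each with an adjusted p of 0.0567 in the same exact permutation. Cacng4 was highest in the 4 mice that were high in striatal markers. The part of these mice in the correlations was not tested. The neighbours of the chromosome 7 row, Cacng7 and Cacng8 (r = -0.37) and Cacng8 and Cacng6 (r = -0.09), and those of chromosome 11, Cacng4 and Cacng5 (r = 0.13), lay within the range of the other pairs.

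By likeness over the 12 mice, the nearest gene to Cacng2 was Fam189b (r = 0.951), then Cabp1 and Iglon5, and to Cacng3 it was Gspt2 (r = 0.941), then Fam185a and Fam124a. The nearest were Gm5093 (r = 0.855) for Cacng5, Gm49552 (r = 0.932) for Cacng6, Dazap2 (r = 0.935) for Cacng7 and Taok3 (r = 0.902) for Cacng8. Each is the highest of 17110 correlations and is given as a description.

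The genes that lie next to the family in the genome were also tested. None of the 18 neighbours tested, among them Prkca beside Cacng5 and Prkcb beside Cacng3, was called in VEH-CD against VEH-WT, where their log2 fold changes ran from -0.41 (Gm44257, a noncoding gene between Cacng7 and Cacng8) to 0.62 (Gm11650, at the start of Cacng4).

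The partners of the TARPs were described by lists. The 4 AMPA receptor pore genes, Gria1 to Gria4, were all tested and none was called, or had an unadjusted p under 0.05, in any comparison. In VEH-CD against VEH-WT, 3 of them were above 1 and 1 below, with a median log2 fold change of 0.04 and a range from -0.07 (Gria4) to 0.09 (Gria1). Of the 11 other auxiliary proteins of AMPA receptors, such as the cornichons Cnih2 and Cnih3 and the Shisa proteins, 8 were above and 3 below, the lowest being Shisa6 (log2 fold change -0.29) and the highest Cnih3 (0.16), and again none was called or had an unadjusted p under 0.05. In VERCUR-CD against VEH-CD, 4 of these 11 were above and 7 below, from -0.38 for Shisa8 to 0.16 for Frrs1l. The 4 scaffolds of the PSD-95 family, which bind the ends of type I TARPs, ranged from -0.13 (Dlg2) to 0.06 (Dlg3) in VEH-CD against VEH-WT, and the same count of 0 held for them.

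Verapamil acts on the pore subunits of voltage-gated calcium channels, and these were listed with their beta and alpha-2-delta subunits. Of 18 genes looked for, 17 were tested. In VEH-CD against VEH-WT, 4 were above and 13 below, with a median log2 fold change of -0.08, a range from -0.27 (Cacna2d2) to 0.36 (Cacna1s) and a smallest limma adjusted p of 0.351, and 2 of the 17 had an unadjusted p under 0.05, beside 11.8% of all genes. In VERCUR-CD against VEH-CD, 12 were above and 5 below, with a median of 0.06 and a range from -0.14 (Cacnb1) to 0.23 (Cacna2d1). These comparisons share the VEH-CD mice. In VERCUR-WT against VEH-WT, 7 were above and 10 below, with a median of -0.04. None was called in any of the 8 comparisons. Of the 3 further family genes looked up, Cacng1 and Gsg1 were not found among the genes measured. The third, Tmem37, had a mean normalized count of 49.8. Its log2 fold change was -0.15 in VEH-CD against VEH-WT (limma adjusted p = 0.832).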

How the data were processed

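The authors sequenced cortex RNA as paired 100 nt reads, aligned it to GRCm38 with STAR 2.5.3a and deposited normalized counts per gene and mouse, 1 column for each of the 12 mice. The counting program and the normalization are not given in the sources used here. In every mouse 100% of low values were whole multiples of 1 step (within 0.1 step), from which the reads counted and the counting intervals were taken. limma 3.58.1 (R 4.3.3) was fitted with an intensity trend to log2(normalized count + 1) for the 17111 genes with a mean of at least 10, as 4 group means over the 12 mice. Fold changes are on that scale, which understates those of low genes. p-values were two-sided, adjusted (Benjamini-Hochberg) over all genes tested, and called under 0.05. They weigh each difference against the spread between mice of a group, pooled over the 4 groups and moderated by a trend over all genes tested. Correlations were tested by permutation (Python 3.11.15, scipy 1.17.1). Coding sequences were aligned with Biopython 1.88. Lengths and positions are from GENCODE M21. Named genes are the 7 members, lists of their partners, the 2 nearest genes measured on each side of each cluster, the 3 most alike genes, and cell type markers. The members and lists were chosen with earlier results of these data known. The fit was tested on simulated data with known changes in VEH-CD. It called 44% of genes given a log2 change of 0.6, 88% of those given 1 and 94% of those given 1.5. Changes smaller than 0.6 were not simulated.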

Additional observations from a re-analysis of the deposited data

How the results depend on the processing

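The 7 genes were refitted with pseudocounts of 0.1 and 5, no filter, a mean of at least 50 (which leaves Cacng6 untested), quantile normalization, median centring, no intensity trend, removal of values in groups with a CV of 20% or more, the replicate number as a block, and each mouse left out. The striatal covariate and the fit without 4 mice were added after the data were seen. The planned edgeR and DESeq2 fits were not run. The number of members called stayed at 0 in every comparison under each of these, except VEH-CD against VEH-WT with values removed by CV, where it was 1 (Cacng6). Of 1280 alternative values of the 56 log2 fold changes, 1220 kept their sign and side of the threshold, 1 became called and 59 changed sign, in 27 of the 56, none of which had a main value above 0.19 in size. Replicate numbers did not pair the mice (correlations of same-numbered deviations from -0.347 to 0.267), and with the replicate block 0 members were called in each comparison.

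Sign changes outside the leave-one-out fits, on the log2 scale, were as follows. Quantile normalization gave 0.015 for Cacng4 in CD against WT over both treatments. Removal by CV gave Cacng6 -0.045 in VERCUR-CD against VERCUR-WT and -0.16 in VERCUR-CD against VEH-CD. With the striatal covariate, Cacng4 was 0.0022 in VERCUR-CD against VEH-CD, 0.12 in VERCUR-CD against VEH-WT and 0.12 in VERCUR against VEH over both genotypes, where Cacng3 was -0.019 and Cacng8 -0.036, and Cacng3 was -0.015 in VERCUR-CD against VEH-WT. Without the 4 mice high in striatal markers, Cacng7 was 0.012 in VEH-CD against VEH-WT, Cacng5 0.011 in VERCUR-CD against VERCUR-WT and -0.00403 in VERCUR-CD against VEH-CD, Cacng8 0.0101 in VERCUR-CD against VEH-WT and Cacng3 -0.021 in CD against WT over both treatments. The cause was not tested.

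With each mouse left out in turn, the ranges that crossed 0 were, for VEH-CD against VEH-WT, Cacng4 from -0.0105 to 0.23, Cacng7 from -0.12 to 0.052 and Cacng8 from -0.041 to 0.068. For VERCUR-CD against VERCUR-WT they were Cacng2 from -0.16 to 0.0295, Cacng3 from -0.104 to 0.025, Cacng4 from -0.307 to 0.021, Cacng5 from -0.103 to 0.055 and Cacng6 from -0.045 to 0.26. For VERCUR-CD against VEH-CD they were Cacng3 from -0.052 to 0.023, Cacng5 from -0.048 to 0.11, Cacng6 from -0.16 to 0.12 and Cacng8 from -0.104 to 0.0044. For VERCUR-WT against VEH-WT they were Cacng2 from -0.16 to 0.028, Cacng4 from -0.083 to 0.16 and Cacng7 from -0.16 to 0.0125. For VERCUR-CD against VEH-WT they were Cacng4 from -0.23 to 0.063, Cacng7 from -0.0253 to 0.14 and Cacng8 from -0.0649 to 0.0117. For CD against WT over both treatments they were Cacng3 from -0.0299 to 0.0346 and Cacng4 from -0.091 to 0.073. For VERCUR against VEH over both genotypes they were Cacng3 from -0.000792 to 0.064, Cacng4 from -0.14 to 0.0107, Cacng7 from -0.032 to 0.0525 and Cacng8 from -0.013 to 0.041. For the interaction, Cacng2 ran from -0.103 to 0.089. Cacng6 in VEH-CD against VEH-WT ran from 0.31 to 0.63 without a call. Depth limits Cacng6, at 25 to 67 reads per mouse.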
